A study of Homo sapiens with 6 samples.

Results

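The genes described here are 10 members of the BCL2 family, namely BCL2, BCL2L1, MCL1, BAK1, BOK, BCL2L11, BID, BAD, BMF and BIK. They were chosen by name, and each of the 10 was found as 1 row among the 60483 gene IDs of the count files. All 10 passed the filter on low counts. RNA-seq was performed in 253J, an established line of human bladder cancer cells, after transfection with a control siRNA (control, replicates 1, 2 and 3) or with an siRNA against FTO, the m6A demethylase (siFTO, replicates 4, 5 and 6). No genotype, age or time after transfection is given for either group, and the methods of the study describe an shRNA vector where the sample labels name an siRNA. Nothing in the sources used here says that the replicates were separate cultures, so p-values measure the spread between these samples alone, which may be technical.

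The BCL2 family decides whether the outer mitochondrial membrane stays closed or is opened to release cytochrome c, which starts the caspase cascade. Its anti-apoptotic members, or guardians (BCL2, BCL2L1, MCL1), hold the pore-forming effectors BAK1 and BAX and the BH3-only proteins in check. BOK, also an effector, can act without being held by them. The BH3-only proteins (BCL2L11, BID, BAD, BMF, BIK) sense damage, loss of attachment or loss of growth factors and act by binding the guardians or the effectors. In epithelial cancers BCL2L1 and MCL1 are the guardians most often relied upon.

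Depth and the composition of the libraries bear on every value given here. Total counts ranged from 10991789 to 19891269 per library. FTO stood at 31.8, 21.4 and 31.2 CPM (a gene's share of the counts, scaled to a library of common size with TMM factors) in control replicates 1, 2 and 3 and at 20.2, 20.7 and 15.8 CPM in siFTO replicates 4, 5 and 6, a log2 fold change of -0.57 ± 0.16 (SE, adjusted p = 0.0209, quasi-likelihood test of edgeR). This call was lost on library totals alone and without control replicate 1 or 3 (highest adjusted p = 0.113 from edgeR). In siFTO replicates 4 and 5, 13 mesenchymal markers summed to 2191 and 2651 CPM, against 57.0 CPM in replicate 6 and 29.9 to 31.2 CPM in the controls. Of these markers 9, 9 and 2 reached 10 CPM in replicates 4, 5 and 6, and at most 1 did so in a control, while COL3A1, THY1, LUM and DCN were at 0 in replicate 6 and in each control, and in replicates 4 and 5 the level of these 4 was at most 1.48 CPM. Of 9 leukocyte markers, 1, CD74, reached 10 CPM in replicates 4 and 5 and none did elsewhere, while the sum of the list ran from 3.46 to 6.61 CPM in the other 4 libraries and was 69.4 and 82.6 CPM in replicates 4 and 5. The part of these transcripts in the results was not tested. Calls that were lost without replicates 4 and 5 are named as such, except for BIRC3, whose call was not examined in the alternatives. In bulk RNA fewer cells of a type and less RNA per cell cannot be told apart. Epithelial markers were abundant in each library (6 of 6 at 10 CPM or more, summing to 8583 to 10850 CPM), whereas of 9 urothelial markers 1, PPARG, reached 10 CPM. UPK1B was at 0 counts in each library, UPK1A, UPK2, UPK3A, GATA3, KRT5 and TP63 were under 1 CPM and UPK3B was at most 2.47 CPM. The listed urothelial markers were thus absent or nearly so, except PPARG at 55.1 to 73.3 CPM. Of 6 intestinal markers, 5 reached 10 CPM in each library, and the list summed to 1025 to 1276 CPM.

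Of the 10 members, 3 rose (MCL1, BMF and BIK) and 1 fell (BOK) in the siFTO cells at an adjusted p under 0.05 in edgeR, that is 40% of the members against 37.4% of all 14965 genes tested. By direction the background was 19.5% higher and 17.9% lower. The share of members called was therefore close to that of all genes, and the median log2 fold change of the members was 0.046, against 0.0057 over all genes tested. On library totals alone 4088 genes were higher and 1787 lower, against 2913 and 2684 with TMM factors. With siFTO replicate 6 alone against the controls 2 members passed (BIK higher and BOK lower), where 12.1% of all genes did. With an offset for length and GC content 6 members passed, the 4 named, BAK1 (higher) and BCL2 (lower), where 32.7% of all genes did. The called members were 1 guardian, 1 effector and 2 BH3-only genes. In 7 of the 10 members the 3 siFTO libraries did not overlap with the 3 controls (4 above, 3 below), as was the case for 51.4% of all genes tested.

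**Figure D1:**
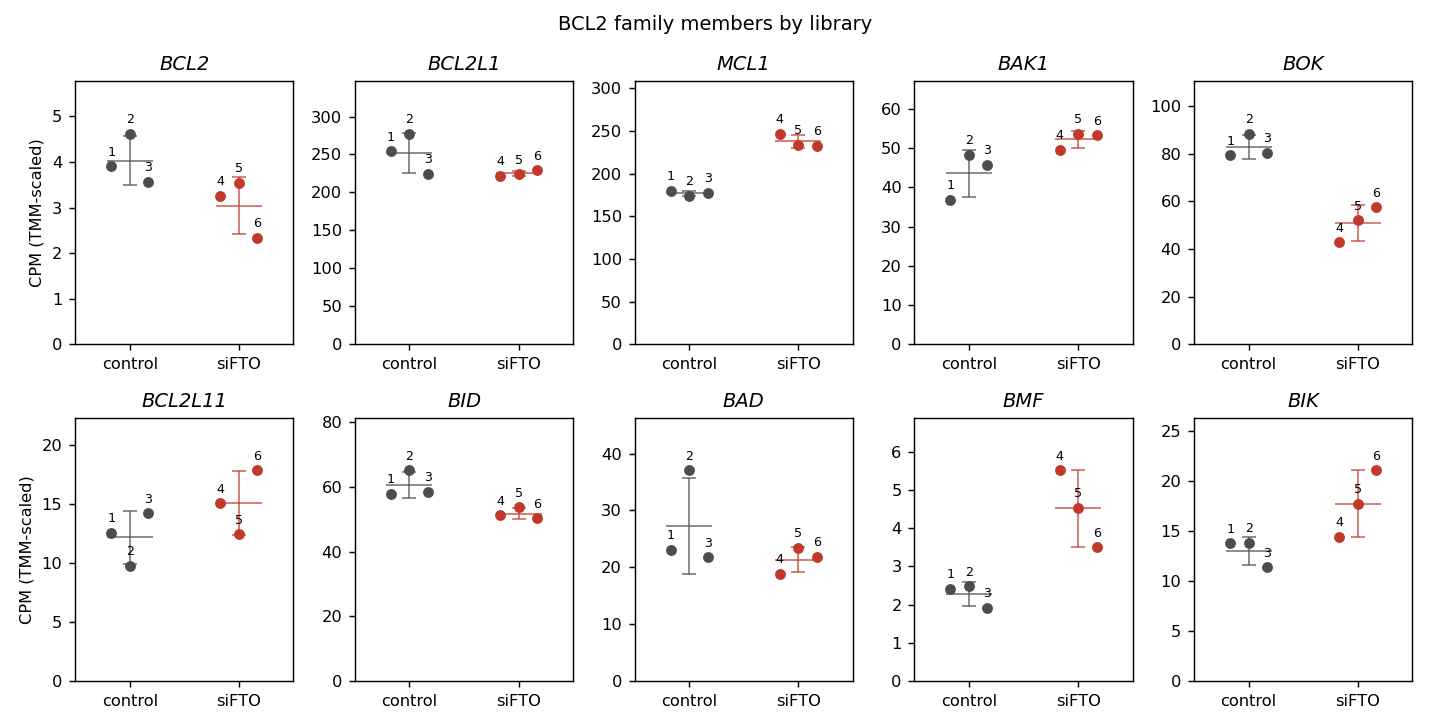
CPM on TMM-scaled library sizes (vertical axes, from 0) of the 10 members in 3 control and 3 siFTO libraries. Points are single libraries, numbered by replicate, and the horizontal line and bars are the mean and SD of the group (n = 3). MCL1 lies at 174.0 to 179.7 CPM in the controls and at 232.6 to 246.8 CPM in the siFTO libraries, whereas BOK falls from 79.45 to 88.5 CPM to 42.8 to 57.6 CPM.

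MCL1, a short-lived guardian that holds BAK1 and several BH3-only proteins, was measured at 179.7, 174.0 and 177.8 CPM in the control libraries and at 246.8, 233.6 and 232.6 CPM in the siFTO libraries. Both groups were tight, and the lowest siFTO library lay above the highest control. The means were 177.2 ± 2.88 CPM and 237.7 ± 7.93 CPM (SD, n = 3 each), a 1.34-fold rise (log2 fold change 0.42 ± 0.078, SE, adjusted p = 0.00299 from edgeR). The rise was alike in the library without abundant mesenchymal transcripts, since siFTO replicates 4, 5 and 6 lay 0.48, 0.40 and 0.39 above the control mean on the log2 CPM scale. With replicate 6 alone against the controls the log2 fold change was 0.39, and the test was no longer passed (adjusted p = 0.0666 from edgeR). With the offset for length and GC content the log2 fold change was 0.26 (adjusted p = 0.0228 from edgeR).

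BCL2L1, which encodes the guardian BCL-xL and, by splicing, the pro-apoptotic BCL-xS, stood at 254.3, 277.4 and 224.6 CPM in the controls and at 221.9, 223.9 and 229.0 CPM in the siFTO libraries. The siFTO values sat at the lower end of the controls and overlapped with control replicate 3. The log2 fold change was -0.16 with a 95% interval from -0.37 to 0.043 (adjusted p = 0.19 from edgeR), an interval that spans falls and a small rise. Without replicates 4 and 5 it was -0.14 (adjusted p = 0.585 from edgeR), without control replicate 2 it was -0.089, and on library totals alone -0.041. Gene counts pool the isoforms of BCL2L1, of MCL1 and of BCL2L11. The antisense gene ABALON covers 43.0% of the exon bases of BCL2L1 in GENCODE 29. Without a stated strand setting it is not known how reads in the shared bases were counted. ABALON, named after its values were seen, had raw counts of 14, 14 and 35 in the controls and of 53, 55 and 43 in the siFTO libraries.

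BCL2, the founding member, was scarce, with raw counts of 42, 69 and 69 in the controls and of 46, 57 and 32 in the siFTO libraries. On the scaled level this was 3.91, 4.62 and 3.56 CPM in the controls against 3.25, 3.54 and 2.33 CPM in the siFTO cells. The groups lay apart by a margin that was small beside their spread, and siFTO replicate 6 was the lowest library. The log2 fold change of -0.40 (95% interval -0.90 to 0.10) did not pass (adjusted p = 0.188 from edgeR). It reached -0.73 with the length and GC offset, where the test was passed (adjusted p = 0.0311 from edgeR). It was -0.78 without siFTO replicates 4 and 5 (adjusted p = 0.132) and -0.25 without siFTO replicate 6 (adjusted p = 0.397, both from edgeR).

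Among the effectors, BOK was lower, whereas BAK1 lay slightly above its controls and did not pass the test. BOK, a BAX-like effector that can permeabilise the membrane without being held by the usual guardians, stood at 79.45, 88.5 and 80.6 CPM in the controls and at 42.8, 52.2 and 57.6 CPM in the siFTO libraries. Each siFTO library was far below each control, and replicate 6 was the least reduced. The level fell from 82.8 ± 4.92 CPM to 50.9 ± 7.48 CPM (SD, n = 3 each), a log2 fold change of -0.70 ± 0.11 (SE, adjusted p = 0.0018 from edgeR), which is a 1.63-fold decrease. BOK was the 1 member whose call was kept in each of the 15 alternative analyses, with log2 fold changes from -0.81 to -0.51 and adjusted p from 5.37e-07 to 0.0375. Without siFTO replicates 4 and 5, a fit with 1 siFTO library, the log2 fold change was -0.52.

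BAK1, the resident effector of the outer membrane, stood at 36.8, 48.2 and 45.8 CPM in the controls and at 49.6, 53.7 and 53.3 CPM in the siFTO libraries. The lowest siFTO library was just above the highest control, and control replicate 1 stood lowest. The log2 fold change was 0.26 (95% interval 0.0100 to 0.50) and did not pass over all genes (adjusted p = 0.0929 from edgeR). It passed on library totals alone (0.38, adjusted p = 0.0177, where the median of all genes was itself 0.13) and with the length and GC offset (0.42, adjusted p = 0.00901, both from edgeR). Without control replicate 1 it was 0.14 (adjusted p = 0.28 from edgeR). The processed pseudogenes BAK1P1 and BAK1P2 had at most 2 counts in any library.

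Windows at RefSeq starts are shown for both effectors and for BMF, of which BOK was called lower, BMF was called higher and BAK1 did not pass. Windows of 300 bases (250 before and 50 after the RefSeq start, GRCh38.p14) were held for 8 of the 10 members, 15 windows in all, and MCL1 and BIK had no entry. Each window below is written 5′ to 3′ on the strand of the gene, with capitals for matches on either strand to GGGCGG (GC box), CCAAT, TGACGTCA (CRE), TGANTCA (AP-1 site), CACGTG (E-box), TATAAA or TGATGNAA (the core of the ATF4 composite site). The windows lie at chr2:241558495-241558794 on the plus strand for BOK and, on the minus strand, at chr6:33580227-33580526 for BAK1 and at chr15:40108830-40109129 and chr15:40106917-40107216 for both starts of BMF.
BOK: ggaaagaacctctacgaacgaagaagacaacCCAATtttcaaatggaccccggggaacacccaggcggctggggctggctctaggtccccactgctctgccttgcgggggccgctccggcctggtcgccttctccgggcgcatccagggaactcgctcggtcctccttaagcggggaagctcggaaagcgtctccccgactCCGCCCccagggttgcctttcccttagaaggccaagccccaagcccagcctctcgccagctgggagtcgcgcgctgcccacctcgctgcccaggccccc
BAK1: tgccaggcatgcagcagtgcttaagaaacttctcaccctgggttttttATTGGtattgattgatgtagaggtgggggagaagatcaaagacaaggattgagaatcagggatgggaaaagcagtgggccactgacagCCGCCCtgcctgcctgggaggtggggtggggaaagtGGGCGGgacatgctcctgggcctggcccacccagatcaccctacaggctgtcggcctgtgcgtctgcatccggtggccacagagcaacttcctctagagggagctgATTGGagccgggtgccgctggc
BMF start 1: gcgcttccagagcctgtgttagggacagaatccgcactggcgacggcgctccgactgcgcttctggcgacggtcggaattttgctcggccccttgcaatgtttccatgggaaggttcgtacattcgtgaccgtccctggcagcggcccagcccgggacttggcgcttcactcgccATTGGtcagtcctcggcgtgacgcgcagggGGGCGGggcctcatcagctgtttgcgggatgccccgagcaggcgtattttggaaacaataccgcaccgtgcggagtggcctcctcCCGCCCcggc
BMF start 2: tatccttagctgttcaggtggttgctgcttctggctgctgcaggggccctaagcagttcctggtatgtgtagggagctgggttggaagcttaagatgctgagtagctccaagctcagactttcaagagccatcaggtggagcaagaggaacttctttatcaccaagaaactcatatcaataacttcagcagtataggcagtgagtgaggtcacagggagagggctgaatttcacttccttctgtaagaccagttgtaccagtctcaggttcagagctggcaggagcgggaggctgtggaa
The BOK window held 1 GC box and 1 CCAAT box, the BAK1 window 2 of each, and BMF start 1 held 2 GC boxes and 1 CCAAT box. BMF start 2 held no match to any of these letters. Of 35116 windows of all genes, 45.0% held a GC box and 34.6% a CCAAT box, so these matches were common ones. The letters of the CRE, the AP-1 site and the ATF4 core were found in none of the 15 windows of the members, and in 1.85%, 7.71% and 3.62% of all windows. At shares this low few matches would be found in 15 windows, and windows of BID and of BAD overlap each other, so no contrast is drawn.

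BMF, a BH3-only protein known for its release from the cytoskeleton when cells detach, had the largest fold change of the 10 members and one of the lowest levels. Its raw counts were 26, 37 and 37 in the controls and 78, 73 and 48 in the siFTO libraries, or 2.42, 2.48 and 1.91 CPM against 5.52, 4.54 and 3.50 CPM. Each siFTO library was above each control, and replicate 6 was the lowest of the 3. The mean rose from 2.27 ± 0.311 CPM to 4.52 ± 1.01 CPM (SD, n = 3 each), a 2.01-fold change (log2 fold change 1.004 ± 0.24, SE, adjusted p = 0.00918 from edgeR). The call was lost without control replicate 1 (adjusted p = 0.0557), control replicate 3 (0.0658) or siFTO replicate 4 (0.053), at log2 fold changes of 1.03, 0.88 and 0.83, over a range of adjusted p from 0.00104 to 0.219 in the alternatives (edgeR, and DESeq2 or limma voom where these were used). The highest of these was that of replicate 6 alone against the controls, with a log2 fold change of 0.64.

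BIK, a BH3-only protein of the endoplasmic reticulum found mainly in epithelial cells, stood at 13.8, 13.8 and 11.4 CPM in the controls and at 14.4, 17.7 and 21.1 CPM in the siFTO libraries. The groups did not overlap, although replicate 4 was only slightly above control replicates 1 and 2, and replicate 6 was highest. The means were 13.0 ± 1.40 CPM and 17.7 ± 3.32 CPM (SD, n = 3 each), a 1.37-fold rise (log2 fold change 0.46 ± 0.16, SE, adjusted p = 0.0421 from edgeR). The call was lost without control replicate 1, 2 or 3 or siFTO replicate 5 or 6 (adjusted p = 0.111, 0.099, 0.163, 0.0846 and 0.113 from edgeR), at log2 fold changes of 0.49, 0.50, 0.36, 0.46 and 0.31. It was also lost with upper-quartile scaling (adjusted p = 0.0519 from edgeR). The log2 fold change was 0.71 for replicate 6 alone against the controls and 0.76 with the length and GC offset (adjusted p = 0.0042 from edgeR).

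The other 3 BH3-only genes did not pass. BID, which carries the signal of death receptors to the mitochondrion once cleaved by caspase-8, stood at 57.9, 65.1 and 58.5 CPM in the controls and at 51.2, 53.7 and 50.3 CPM in the siFTO libraries, so that the groups lay apart. Its log2 fold change was -0.23 (95% interval -0.42 to -0.030, adjusted p = 0.0673 from edgeR), and the test was passed with upper-quartile scaling (-0.25, adjusted p = 0.0465 from edgeR), while on library totals alone the value was -0.10 (adjusted p = 0.377 from edgeR). BCL2L11 (BIM), a strong activator that binds all guardians, stood at 12.6, 9.78 and 14.2 CPM in the controls and at 15.1, 12.4 and 17.9 CPM in the siFTO libraries, with overlap of the groups. The log2 fold change of BCL2L11 was 0.31 (95% interval -0.083 to 0.70, adjusted p = 0.193 from edgeR) and 0.071 with the length and GC offset. It was 0.15 without siFTO replicate 6, 0.17 without control replicate 2 and 0.55 without siFTO replicates 4 and 5, and did not pass in any of these. BAD, which is kept inactive by phosphorylation and 14-3-3 proteins, stood at 23.1, 37.0 and 21.8 CPM in the controls and at 18.9, 23.4 and 21.8 CPM in the siFTO libraries. Control replicate 2 stood above the other controls, and the log2 fold change of BAD was -0.35 (95% interval -0.77 to 0.066, adjusted p = 0.164 from edgeR), -0.068 without that library and 0.069 with the length and GC offset. On the opposite strand GPR137 covers 23.7% of the exon bases of BAD and MIR4435-2HG 10.9% of those of BCL2L11. How reads in these shared bases were counted is not known, as the strand setting is not given.

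**Figure D2:**
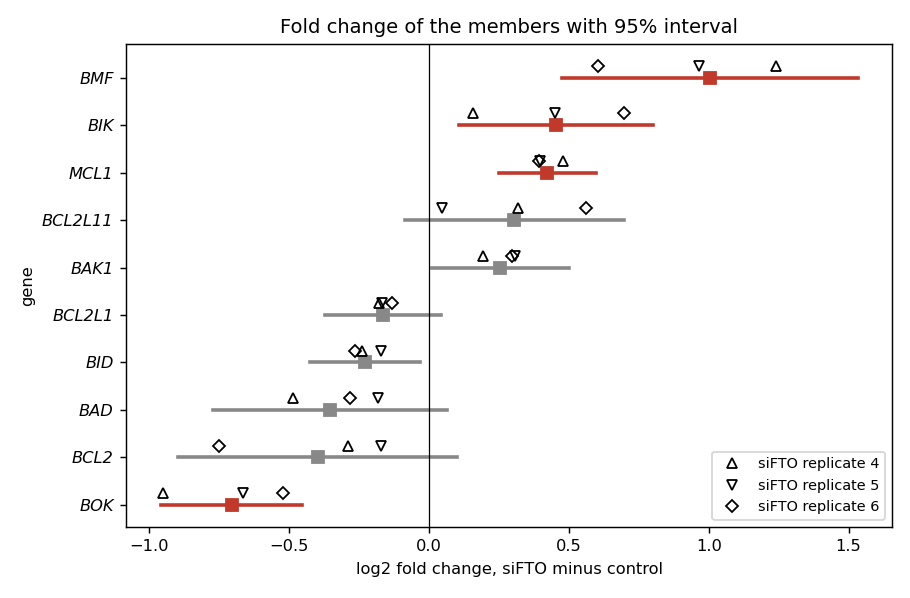
Log2 fold change (horizontal axis, siFTO minus control) of the 10 members, ordered by value, with the 95% interval of the edgeR fit as a line, in red where the adjusted p was under 0.05. Open symbols are siFTO replicates 4, 5 and 6 relative to the control mean on the log2 CPM scale, at 0.48, 0.40 and 0.39 for MCL1 and at -0.95, -0.66 and -0.52 for BOK.

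The levels of different genes were compared per length, as CPM per kb of the union of exons. In the controls BCL2L1 was highest at 76.1 ± 7.99 CPM per kb, followed by MCL1 at 40.5 ± 0.659 and BOK at 30.6 ± 1.82 (SD, n = 3 each), and the library ranges of these 3 genes did not overlap with the next in order. BAK1 (19.7 ± 2.71), BAD (16.0 ± 4.96), BIK (13.6 ± 1.46) and BID (13.6 ± 0.902) came next, and neighbours among these 4 did not differ beyond their spread. BCL2L11 (1.83 ± 0.336), BMF (0.417 ± 0.0571) and BCL2 (0.343 ± 0.0458) formed the lower end, where BMF and BCL2 overlapped.

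In the siFTO cells BCL2L1 (67.9 ± 1.11 CPM per kb) and MCL1 (54.4 ± 1.81) remained the first and second by level. BAK1 (23.6 ± 1.02) took the third place, ahead of BOK (18.8 ± 2.76) and BIK (18.6 ± 3.48), and BOK and BIK overlapped. BAD (12.5 ± 1.33) and BID (11.6 ± 0.393) overlapped as well. BMF (0.830 ± 0.185) stood clear of BCL2 (0.259 ± 0.0538), which was the least abundant of the 10 in both groups. The order over all 6 libraries was the same on library totals, and with the length of the longest transcript in place of the union of exons 3 genes (BAK1, BID and BIK) changed their rank.

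**Figure D3:**
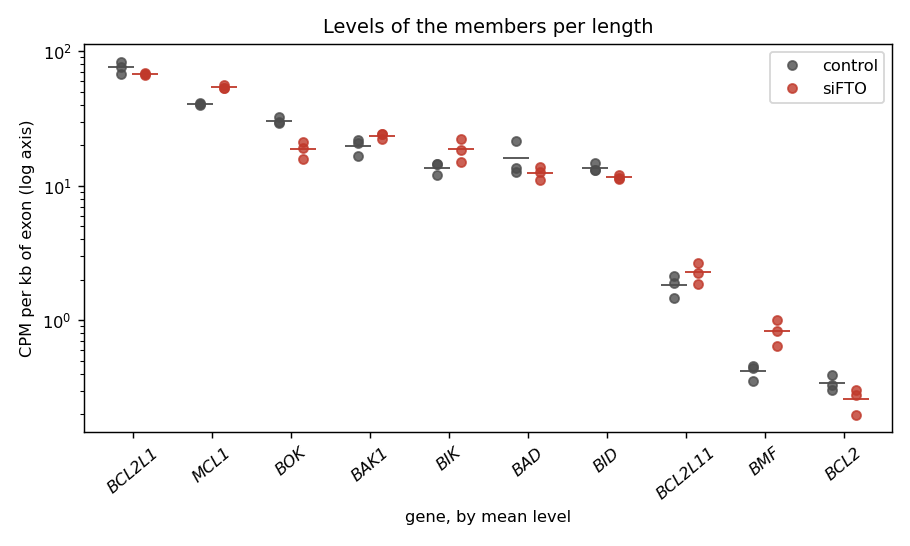
CPM per kb of exon (log axis) of the 10 members in control and siFTO libraries, ordered by the mean over all 6 libraries. Points are libraries and short lines are group means (n = 3). BCL2L1 and MCL1 lead in both groups, and BOK and BAK1 change places, from 30.6 and 19.7 CPM per kb in the controls to 18.8 and 23.6 CPM per kb in the siFTO cells.

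Ratios between 2 members within a library do not depend on how libraries are scaled, and the pairs given here were chosen after the values had been seen, so they are a description with no test. The log2 ratio of MCL1 to BCL2L1 (CPM per kb) was -0.90, -1.07 and -0.74 in the controls and -0.25, -0.34 and -0.38 in the siFTO libraries. In each siFTO library the level of MCL1 was thus nearer to that of BCL2L1 than in any control, and MCL1 made up 24.5% to 27.8% of the summed level of the 10 genes, against 17.2% to 20.4% in the controls. The difference of the 2 fitted log2 fold changes was 0.59, and 0.33 with the length and GC offset. The log2 ratio of BAK1 to BOK (CPM per kb) was -0.82, -0.58 and -0.52 in the controls and 0.51, 0.33 and 0.18 in the siFTO libraries. Per kb, BOK thus exceeded BAK1 in each control and BAK1 exceeded BOK in each siFTO library. Without division by length, BOK stood above BAK1 in siFTO replicate 6 (57.6 against 53.3 CPM). The difference of their log2 fold changes was 0.96, and it lay between 0.81 and 1.04 over the 15 alternatives. The log2 ratio of BIK to BID, whose mean was near 0 in the controls (-0.0023 ± 0.146, SD, n = 3), was 0.66 ± 0.287 in the siFTO cells, with no overlap. The ratio of MCL1 to BAK1, a guardian and the effector it holds, overlapped between the groups (1.05 ± 0.226 and 1.21 ± 0.11 on the log2 scale, SD, n = 3 each). Of the other pairs computed, BCL2L1 to BCL2 and BCL2L11 to BAD also overlapped between the groups, and BMF to BAD did not.

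Summed by role, the 3 guardians made up 55.0% ± 1.73 of the level per kb of the 10 genes in the controls and 58.2% ± 2.44 in the siFTO cells (SD, n = 3 each), with overlapping libraries. The 2 effectors made up 22.2% to 25.3% in the controls and 18.8% to 20.9% in the siFTO libraries, which did not overlap. The BH3-only genes stood at 21.3% ± 1.36 and 21.7% ± 1.35 (SD, n = 3 each), with BIK higher and BAD and BID lower in their mean share. These sums leave out BAX and the other members of the family.

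**Figure D4:**
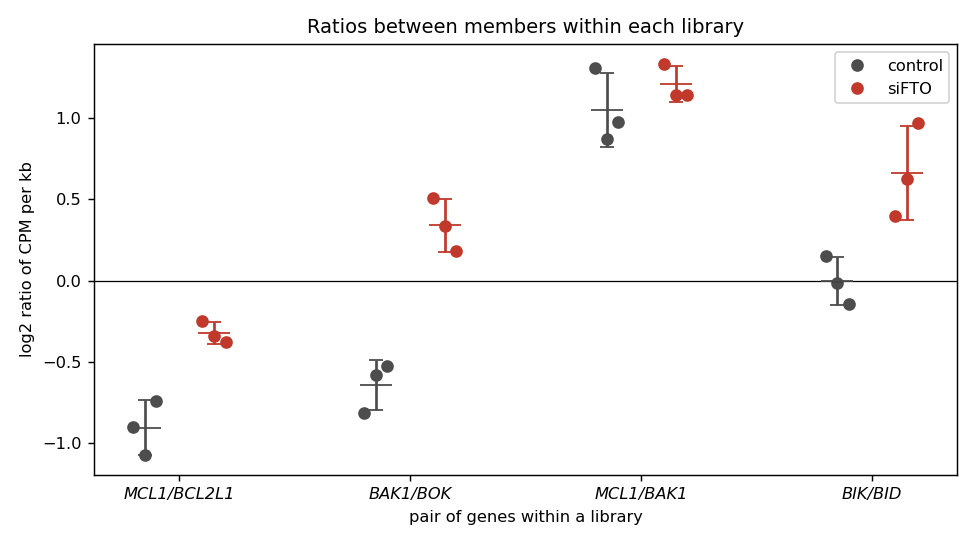
Log2 ratio of CPM per kb (vertical axis) between 2 members within each library, for 4 pairs. Points are libraries, and lines and bars are the mean and SD of the group (n = 3). The BAK1 to BOK ratio lies below 0 in the 3 controls (-0.82 to -0.52) and above 0 in the 3 siFTO libraries (0.18 to 0.51).

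The rest of the family and the steps around it were read from 8 lists holding 72 other genes, of which 69 were tested. Among these 14 were higher and 7 were lower (30.4% called, against 37.4% of all genes tested), with a median log2 fold change of 0.053. Of 11 tested relatives within the family, 4 passed (36.4%), with 2 higher and 2 lower. BBC3 (PUMA), a BH3-only gene, fell from 35.3, 44.6 and 33.5 CPM in the controls to 22.4, 27.0 and 22.5 CPM in the siFTO libraries (log2 fold change -0.65, adjusted p = 0.00434 from edgeR), and -0.30 with the length and GC offset. The effector BAX had a log2 fold change of 0.14 and the BH3-only gene PMAIP1 (NOXA) also of 0.14 (adjusted p of 0.304 and 0.567 from edgeR), and PMAIP1 was below its control mean in replicate 6 alone (12.7 CPM, against 14.98 to 17.8 CPM in the controls). BAX passed on library totals alone (0.27, adjusted p = 0.0468) and with the length and GC offset (0.42, adjusted p = 0.00298, both from edgeR), and stood at 0.055 without control replicate 1. BNIP3, a mitophagy receptor, stood at 20.02 and 27.5 CPM in siFTO replicates 4 and 5, but at 2.26 CPM in replicate 6, within the 1.54 to 2.43 CPM of the controls. Its call (log2 fold change 3.11, adjusted p = 0.00668 from edgeR) was lost without these 2 libraries (0.23, adjusted p = 0.732) without control replicate 1, 2 or 3, and in limma voom. BCL2L14 fell by 0.76 and BCL2L15 rose by 0.98 on the log2 scale (adjusted p of 0.0118 and 0.0189 from edgeR), both at under 10 CPM, and both calls were lost without control replicate 2 or 3 or siFTO replicate 4, that of BCL2L14 also without control replicate 1 or siFTO replicates 4 and 5, and that of BCL2L15 with the length and GC offset.

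Downstream of the membrane, 3 of 9 genes of the apoptosome and the caspases were higher, among them APAF1 and CYCS, and none was lower. This share (33.3%) was near the 37.4% of all genes tested that were called in either direction. APAF1, the scaffold on which caspase-9 is activated, rose from 9.96, 5.76 and 10.6 CPM to 17.3, 15.1 and 18.7 CPM (log2 fold change 0.96, adjusted p = 0.00611 from edgeR), and passed in each of the 15 alternatives. Cytochrome c (CYCS, 0.35, adjusted p = 0.0129 from edgeR) did not pass without siFTO replicates 4 and 5, without siFTO replicate 4 alone, without control replicate 1 or 2, or with the length and GC offset. Of 7 inhibitors of apoptosis and their antagonists, BIRC2, BIRC3 and BIRC6 were higher and none was lower (42.9% called, against the same 37.4%). BIRC3 (0.87, adjusted p = 0.0168 from edgeR) had raw counts of 22, 31 and 28 in the controls and of 53, 52 and 42 in the siFTO libraries. Its call was not examined in the alternatives. BIRC2 (cIAP1), a ubiquitin ligase of TNF receptor signalling, rose from 31.45, 32.4 and 33.5 CPM to 55.5, 52.7 and 41.5 CPM (0.62, adjusted p = 0.00334), whereas BIRC6 (0.44, adjusted p = 0.00603, both from edgeR) stood at 0.014 with the length and GC offset. Neither passed without siFTO replicates 4 and 5.

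Upstream of BID, 1 of 10 genes of the death receptor branch was higher and 1 was lower (20% called, against 37.4% of all genes tested). The receptor FAS rose from 7.82, 5.63 and 8.47 CPM to 13.7, 13.3 and 10.3 CPM (log2 fold change 0.77, adjusted p = 0.0104 from edgeR), a call lost without control replicate 1 or 2 or without siFTO replicates 4 and 5. The TNF receptor TNFRSF1A fell from 144.7, 146.5 and 135.3 CPM to 99.8, 115.1 and 93.0 CPM (-0.47, adjusted p = 0.00456 from edgeR) and passed in each of the 15 alternatives, as BBC3 did. Among 11 kinases and 14-3-3 proteins that act on BAD, 1 was higher and 3 were lower (36.4% called). YWHAQ was higher (0.25, adjusted p = 0.0456) and PIM1 (-0.50, adjusted p = 0.00347), PIM3 (-0.29, adjusted p = 0.0312) and YWHAE (-0.29, adjusted p = 0.0145, all from edgeR) were lower. Of these, PIM1 passed in each fit that left out 1 library, and the other 3 did not, and none of the 4 passed without siFTO replicates 4 and 5. PIM3 stood at -0.045 with the length and GC offset (adjusted p = 0.677) and at -0.17 on library totals alone (adjusted p = 0.144, both from edgeR). The YWHAE call was also lost on library totals alone (-0.17) and with no filter, and that of YWHAQ with upper-quartile scaling, with no filter and with the length and GC offset.

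Of 7 tested genes of turnover and tethering, the MCL1 ubiquitin ligase HUWE1 (0.27, adjusted p = 0.0381) and the MCL1 deubiquitinase USP9X (0.41, adjusted p = 0.00513, both from edgeR) were higher, but with the length and GC offset they stood at -0.11 and -0.0045 and did not pass, and neither passed without siFTO replicates 4 and 5, nor HUWE1 in any fit without 1 library. One of 7 outer-membrane partners (14.3%), OPA1, was higher although its protein acts in fusion of the inner membrane (0.35, adjusted p = 0.0135 from edgeR), and it stood at 0.037 with the same offset. Its call was also lost without siFTO replicates 4 and 5 and without control replicate 2 or 3 or siFTO replicate 4. Of 7 transcription regulators of BH3-only genes, 1 was higher, JUN, and 1 was lower. That is 28.6% called, as for turnover and tethering, against 37.4% of all genes tested. JUN stood at 17.03, 15.7 and 14.1 CPM in the controls and at 86.2, 111.2 and 26.5 CPM in siFTO replicates 4, 5 and 6. Its log2 fold change was 2.27 (adjusted p = 0.00257 from edgeR), and 0.77 without replicates 4 and 5.

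**Figure D5:**
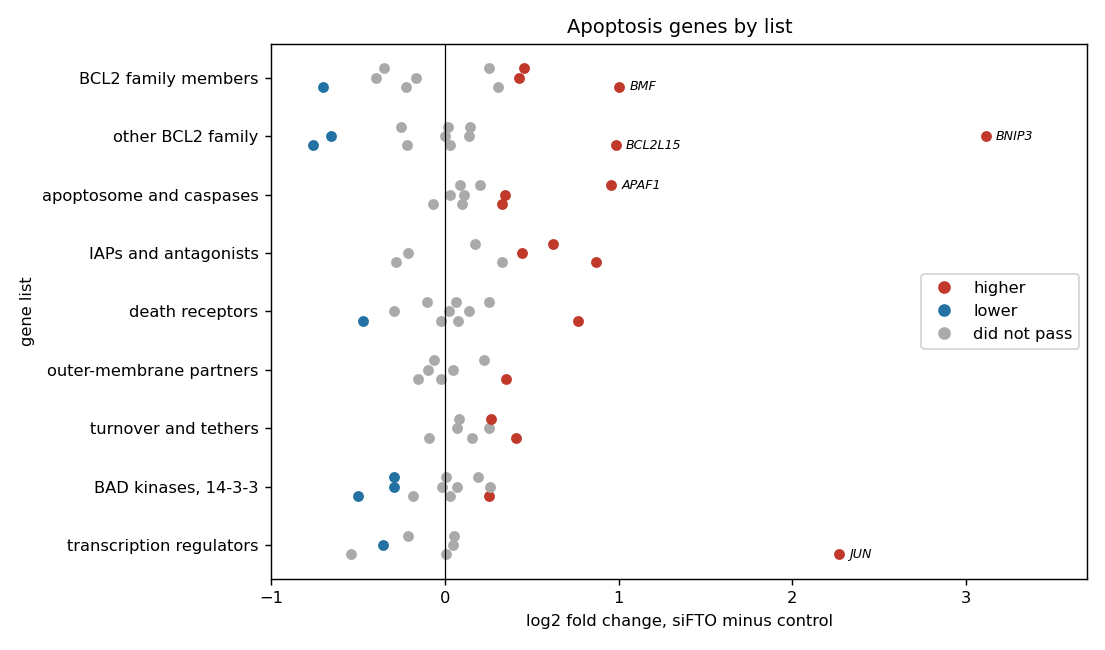
Log2 fold change (horizontal axis, siFTO minus control) of each tested gene, by list. Each point is a gene, red where higher, blue where lower and grey where the adjusted p from edgeR was 0.05 or more, and called genes beyond 0.9 are named. Of the 10 members 3 are red and 1 is blue, and of the 69 tested genes of the other lists 14 are red and 7 are blue.

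In GENCODE 29 on GRCh38 the called members lie on chromosome 1 from 150574551 to 150579738 (MCL1), on chromosome 2 from 241551424 to 241574138 (BOK), on chromosome 15 from 40087890 to 40108892 (BMF) and on chromosome 22 from 43110748 to 43129712 (BIK). The files list them as ENSG00000143384.11, ENSG00000176720.4, ENSG00000104081.12 and ENSG00000100290.2. IDs were matched without the version number, and since the processing notes name hg19 and GRCh37, the gene models behind the counts may differ from these.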

How the data were processed

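RNA-seq counts of 3 control and 3 siFTO samples of 253J cells were used. The authors deposited 1 file of raw counts of reads per gene for each sample, with no normalization. TopHat2 2.0.11, HTSeq, hg19 and GRCh37 are named in the processing notes of the submitters. Not given in the sources used here were the HTSeq version, the annotation release and whether strand was used. The counting itself, and thus reads shared between overlapping genes, could not be examined.

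Counts were tested in edgeR 4.0.16 (R 4.3.3) with filterByExpr (minimum count 10, minimum total 15), TMM scaling and a quasi-likelihood fit with the group as the only term. Tests were two-sided, with Benjamini-Hochberg adjustment over the 14965 genes tested and a threshold of 0.05. The SE was the size of the log2 fold change divided by the square root of F, and intervals (95%) used the total (prior plus residual) degrees of freedom of the fit. CPM of single genes used TMM-scaled sizes, and CPM of marker lists used library totals. Symbols were found for 56321 (93.1%) of 60483 IDs, and lengths and GC content came from GENCODE 29 on GRCh38.

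Alternatives were RLE, upper-quartile and no scaling, no filter, at least 10 counts in every library, DESeq2 1.42.0, limma 3.58.1 (voom), an offset for length and GC content (per-library splines with 4 degrees of freedom each), leaving out each library, and leaving out siFTO replicates 4 and 5. The members, gene lists and alternatives were chosen with earlier results of these data known. Named genes are all members, FTO, markers, any relative within the family, and in each other list at most 3 called genes per direction, by size of change, whose mean log2 CPM was 3 or more. ABALON, BIRC3 and the pairs for ratios fell outside this rule. Results for some genes that the rule would name are not reported here. The script was tested on simulated data.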

Additional observations from a re-analysis of the deposited data

How the results depend on the processing

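No paired analysis was possible because controls are numbered 1 to 3 and siFTO samples 4 to 6. Each of the 10 members kept its direction in all 15 alternatives except BAD, at 0.069 with the length and GC correction. Of the other named genes USP9X (-0.0045) and HUWE1 (-0.11) reversed with that correction, and PMAIP1 reversed without siFTO replicates 4 and 5 (-0.37) and without siFTO replicate 5, the lowest of the fits without 1 library (-0.0051 to 0.32). Members higher numbered 3, and 1 without siFTO replicates 4 and 5, where 12.1% of 15713 genes were called. Leaving out 1 library gave 1 to 2 members higher and 1 lower. In these fits 1383 to 3826 of all genes were higher and 1589 to 2928 lower, of 15033 to 16243 tested. Members lower were 2 with upper-quartile factors (BID added, while BIK was no longer called higher). With these factors 2647 genes were higher and 2915 lower of 14965 tested. Members lower were also 2 with the length and GC correction (BCL2 added), where 32.7% of all genes were called. Over all genes 2913 were higher and 2684 lower, with 970 and 926 without siFTO replicates 4 and 5, 1787 lower (and 4088 higher) with library totals alone, and 1383 to 3826 higher and 1589 to 2928 lower without 1 library. Pathway genes were 14 higher and 7 lower, with 4 lower on library totals alone, 9 higher with the length and GC correction, 3 higher and 3 lower without siFTO replicates 4 and 5, and 6 to 12 higher and 3 to 7 lower without 1 library. With the longest transcript as length, 3 members changed rank. The causes were not tested, although fits without libraries also had fewer samples. The fit without siFTO replicates 4 and 5 held 1 siFTO library, so its counts carry no spread between siFTO samples. BMF and BCL2 had at most 78 counts in any library, and the part of depth in their values was not tested.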
